A study of Mus musculus with 12 samples.

Results

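The genes described here act around the Notch receptor rather than being the receptor or its ligands. They are the Notch target genes Hey1, Hey2, Heyl and Hes1, the target and feedback inhibitor Nrarp, the fringe genes Lfng, Mfng and Rfng, and the modulators Dtx1 and Maml2. They were chosen by symbol, 10 of the 20620 genes in the deposited count table, and all 10 passed the filter on low counts that left 19346 genes for testing.

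Messenger RNA was sequenced from aortic valves of mice at postnatal day 10, in 12 libraries that are each a pool of 3 valves. The wildtype group has 4 libraries, the Notch1+/-;Gata5+/- group (double-heterozygous below) has 4 and the Notch1+/-;Gata5-/- group (Gata5-null below) has 4. Both mutant groups carry the Notch1+/- label, and there is no group with a Gata5 or a Notch1 allele alone, so against wildtype the 2 genes' labels cannot be told apart. The sources used here do not give the strain, the sex, how the alleles were made or which part of each gene they lack. Pools are separate biological replicates per the labels, but single valves within a pool cannot be told apart.

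Notch is a receptor that is cut when a ligand on a neighbouring cell binds it, and its freed intracellular part enters the nucleus, where it binds the DNA-binding protein RBPJ and a mastermind co-activator and switches on genes such as the Hes and Hey repressors. Fringe enzymes add sugars to the receptor in the Golgi and so change which ligands it answers. In the heart, Notch signalling in endocardial cells takes part in the formation of the valve cushions, and in humans loss of one NOTCH1 copy is a known cause of bicuspid and calcified aortic valves.

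Total counts were 13866604 to 25059653 per library. A count of 0 allows a level of up to 3 counts, which is 0.120 to 0.216 CPM in these libraries and covers counting error only. CPM is the usual scaling of counts to the library total, here with TMM, a factor that evens out differences in composition. Gata5 had 0 counts in the 4 Gata5-null libraries and 18 to 56 in wildtype. It had 97, 112, 98 and 15 counts in double-heterozygous replicates 1 to 4. The mean of Gata5 was thus higher in double-heterozygous (4.09 CPM) than in wildtype libraries (1.77 CPM). That log2 fold change was 1.21 (SE 1.13, edgeR adjusted p = 0.999997). Notch1 was at 98.6 to 159 CPM in wildtype, 148 to 194 CPM in the double-heterozygous and 152 to 213 CPM in the Gata5-null libraries. Gata5-null replicate 3, with 6000 genes at 0, stands apart from the other libraries, which have 1017 to 3208, the highest of them in wildtype replicate 2. All 16 endothelial and all 10 valve interstitial and fibroblast markers had counts in every library, as did all 10 heart muscle markers, whose summed level was 23780 to 55353 CPM.

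None of the 10 genes passed the test in any of the 3 comparisons (edgeR quasi-likelihood, Benjamini-Hochberg adjusted over all genes, adjusted p under 0.05). Gata5 itself, with 0 counts in every Gata5-null library, did not pass either. Its log2 fold change for Gata5-null against wildtype was -8.12 (SE 1.71, edgeR adjusted p = 0.204). A gene of low count can thus be missed by this test, and not passing does not show lack of change. Over all genes tested, 0.0258% passed for Gata5-null against wildtype, 0% for double-heterozygous against wildtype and 0% for Gata5-null against double-heterozygous (5, 0 and 0 genes). DESeq2 called 49, 8 and 13 genes and limma-voom 6, 0 and 0, with no member among them. At an unadjusted p under 0.05, the members numbered 1, 1 and 0, the 1 being Lfng both times, against 5.4%, 1.25% and 3.18% of all genes. For no member and no pair of groups were the 4 libraries of one group all above or all below those of the other, a pattern seen in 2.93%, 2.24% and 2.73% of all genes. The median log2 fold change of the 10 genes was -0.06, -0.10 and 0.12 in the 3 comparisons, beside -0.03, 0.00 and -0.04 over all genes tested. In the same order, 4, 3 and 7 of the 10 had a positive value, beside 46.1%, 50.3% and 44.5% of all genes.

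**Figure D1:**
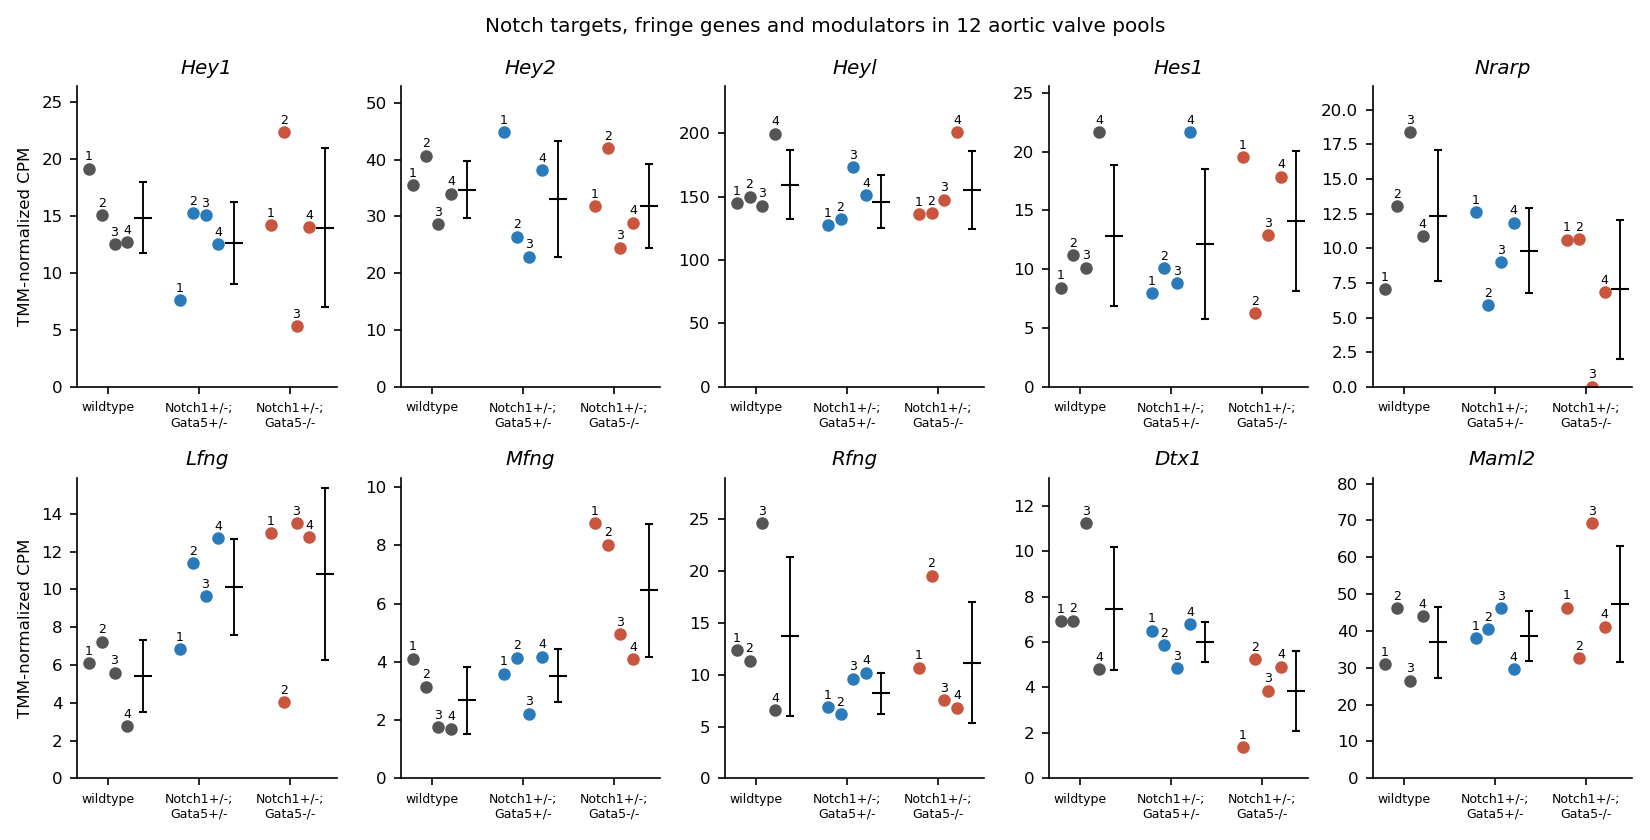
TMM-normalized CPM of each of the 10 genes in the 12 libraries, with the replicate number above each point and a mean ± SD (n = 4) beside each group. Lfng is at 12.8 to 13.5 CPM in 3 Gata5-null libraries and at 4.01 CPM in the fourth, and the groups of every gene overlap.

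Levels between genes were set against each other as CPM per kb of exon, with exon lengths from GENCODE M21. Heyl was the highest of the 10 in every library, with a mean of 30.1 ± 4.85 CPM per kb (SD, n = 12). Hey2 (7.23 ± 1.57), Hes1 (6.41 ± 2.75) and Maml2 (6.20 ± 1.71) followed in CPM per kb. Hey2 was above Hes1 in 7 of 12 libraries and Hes1 above Maml2 in 5 of 12, so the order of these neighbours is within their spread. Rfng (4.43 ± 2.27), Hey1 (4.23 ± 1.38), Nrarp (3.77 ± 1.76) and Lfng (3.51 ± 1.53) came next in CPM per kb, and over all 12 libraries each was above the next in 5 to 7. By group the order differs: in wildtype Hey1 (4.54) was above Lfng (2.16) in 4 of 4 libraries, and in double-heterozygous libraries Lfng (4.05) was above Hey1 (3.86) in 2 of 4. Mfng (1.49 ± 0.78) and Dtx1 (1.10 ± 0.44) were the lowest in CPM per kb. Lfng was above Mfng in 11 of 12 libraries. The order of Mfng and Dtx1 differed between the groups: Dtx1 (1.42) was above Mfng (0.943) in 3 of 4 wildtype libraries, and Mfng (2.27) above Dtx1 (0.729) in 4 of 4 Gata5-null libraries.

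**Figure D2:**
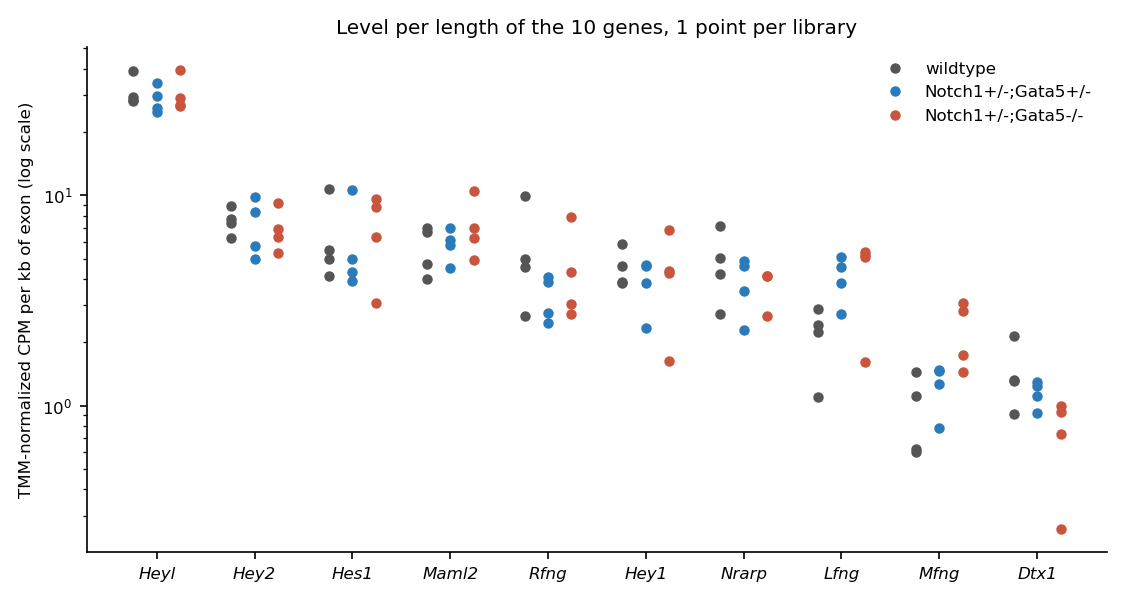
CPM per kb of exon (log scale) of the 10 genes, ordered by their mean over 12 libraries, with 1 point per library coloured by group. Heyl lies at 24.9 to 39.4 CPM per kb, above every other gene in every library, and the 1 library at 0 for Nrarp is not drawn.

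Heyl (ENSMUSG00000032744), a repressor of the Hey family known as a Notch target in vascular smooth muscle, was both the most abundant and the least variable of the 10. Its level was 145, 150.2, 143 and 199.9 CPM in wildtype replicates 1 to 4, and 128, 132, 174 and 151 CPM in the double-heterozygous libraries. In the Gata5-null libraries it was 136, 137, 148 and 201 CPM. The groups overlap over most of their ranges, and wildtype replicate 4 and Gata5-null replicate 4 are the highest. Between Gata5-null and wildtype the log2 fold change was -0.04, with a 95% interval of -0.35 to 0.28, and -0.13 for double-heterozygous against wildtype, with an interval of -0.44 to 0.19 (edgeR adjusted p = 0.9997 and 0.999997). The biological coefficient of variation fitted for Heyl was 0.173, beside a median of 0.424 over all genes. In the same libraries the summed level of 8 smooth muscle markers was 5437 to 7305 CPM in wildtype, 5034 to 5489 CPM in the double-heterozygous and 3704 to 4905 CPM in the Gata5-null libraries. All 8 had a negative log2 fold change against wildtype in both mutant groups. For Gata5-null 4 passed the test, and for double-heterozygous 0 (5 at an unadjusted p under 0.05). The summed level of 5 pericyte markers was 974 to 1281 CPM in wildtype, 858 to 1165 CPM in the double-heterozygous and 930 to 1301 CPM in the Gata5-null libraries. Of these 5, 3 were positive for Gata5-null against wildtype and 4 for double-heterozygous, and none passed the test. Like Heyl, the pericyte sum was highest in Gata5-null replicate 4 and wildtype replicate 4 and lowest in double-heterozygous replicate 1. Replicate 4 of each group also had the highest smooth muscle sum and the highest sum of 16 endothelial markers of its group. Their lowest libraries were Gata5-null replicate 1 and wildtype replicate 3. The part of any of these lists in the Heyl values was not tested.

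Hey2 (ENSMUSG00000019789), a repressor that acts downstream of Notch in arterial endothelium and is also made in ventricular muscle, was at 28.6 to 40.7 CPM in wildtype and 22.9 to 44.9 CPM in the double-heterozygous libraries. It was at 24.5 to 42.0 CPM in the Gata5-null libraries, so the 3 ranges overlap, and that of wildtype is the narrowest. Its log2 fold change was -0.13 for Gata5-null against wildtype (95% interval -0.59 to 0.34) and -0.07 for double-heterozygous against wildtype (95% interval -0.54 to 0.40). Hey1 (ENSMUSG00000040289), which is induced by Notch in endocardium and endothelium, had its widest spread in the Gata5-null libraries, at 14.2, 22.3, 5.30 and 14.0 CPM in replicates 1 to 4. Its wildtype range was 12.5 to 19.1 CPM and its double-heterozygous range 7.60 to 15.2 CPM, so the lowest and the highest of all 12 values are both Gata5-null libraries. Hey1 had a log2 fold change of -0.09 for Gata5-null against wildtype (95% interval -0.83 to 0.65) and -0.23 for double-heterozygous against wildtype (95% interval -0.98 to 0.51). The direction for Gata5-null turned to 0.19 without Gata5-null replicate 3, the library with the most genes at 0.

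Hes1 (ENSMUSG00000022528), a repressor that answers Notch in many cell types, was at 8.42, 11.2, 10.1 and 21.7 CPM in wildtype replicates 1 to 4. It was at 7.96, 10.1, 8.82 and 21.7 CPM in the double-heterozygous and 19.5, 6.28, 12.9 and 17.9 CPM in the Gata5-null libraries. In each of wildtype and double-heterozygous, replicate 4 stands above the other 3, while the Gata5-null libraries are spread between 6.28 and 19.5 CPM. For Hes1 the log2 fold change was 0.14 for Gata5-null against wildtype (95% interval -0.68 to 0.96) and -0.08 for double-heterozygous against wildtype (95% interval -0.91 to 0.74). For double-heterozygous against wildtype it was 0.29 without wildtype replicate 4 and -0.52 without double-heterozygous replicate 4, so the direction for Hes1 rests on single libraries.

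The promoters of Hey2 and Lfng are shown because both genes are Notch targets in other tissues and the windows around their starts each hold the core letters of the RBPJ motif at 2 places. Sequences are from RefSeq on build GRCm38.p6, which differs from GRCm39, the build the submitters name, and run from 250 bases before to 50 bases after the annotated start. Capitals mark TGGGAA or its reverse complement.
Hey2, chr10:30842734-30843033, minus strand: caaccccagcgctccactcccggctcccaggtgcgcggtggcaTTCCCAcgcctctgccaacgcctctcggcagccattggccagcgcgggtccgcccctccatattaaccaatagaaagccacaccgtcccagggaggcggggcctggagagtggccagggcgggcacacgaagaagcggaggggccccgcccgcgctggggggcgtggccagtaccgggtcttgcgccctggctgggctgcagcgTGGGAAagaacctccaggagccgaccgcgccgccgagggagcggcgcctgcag
Lfng, chr5:140607091-140607390, plus strand: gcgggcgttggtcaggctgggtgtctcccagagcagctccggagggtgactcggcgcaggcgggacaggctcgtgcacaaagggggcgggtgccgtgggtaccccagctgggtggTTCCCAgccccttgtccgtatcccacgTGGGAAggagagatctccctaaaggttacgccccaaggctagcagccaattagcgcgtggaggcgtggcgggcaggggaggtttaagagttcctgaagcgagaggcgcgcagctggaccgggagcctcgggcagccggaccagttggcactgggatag
In Hey2 the motif begins at positions -207 and -3, and in Lfng at positions -135 and -108, counted from the annotated start, with negative positions before it. TGGGAA, searched on both strands, is in 25.6% of 32851 promoters of this length, and the longer GTGGGAA in 6.38%. The longer form occurs at 2 places in the Hey2 promoter and at 1 in the Lfng promoter. Promoter sequences were at hand for 6 of the 10 genes. Those of Hey1, Heyl, Hes1 and Mfng were absent and were not searched. Nrarp, Rfng and Dtx1 held no TGGGAA in this window, and of the 2 Maml2 promoters 1 held it once. Hey2 and Lfng, whose promoters share these letters, had log2 fold changes of -0.13 and 0.998 for Gata5-null against wildtype.

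Nrarp (ENSMUSG00000078202), a small ankyrin-repeat protein that is induced by Notch and shortens the life of its intracellular part, was at 7.07, 13.0, 18.4 and 10.9 CPM in wildtype replicates 1 to 4. It was at 12.6, 5.91, 9.02 and 11.8 CPM in the double-heterozygous and at 10.6, 10.7, 0 and 6.86 CPM in the Gata5-null libraries. The 0 is in Gata5-null replicate 3, where 227, 165 and 166 counts stand in the other 3 libraries of the group. The log2 fold change for Gata5-null against wildtype was -0.81 (SE 0.84, edgeR adjusted p = 0.9997), with a 95% interval of -2.63 to 1.02, and it was -0.38 without Gata5-null replicate 3. An annotated antisense gene, Gm38287, covers 79.4% of the exonic bases of Nrarp, and since the labels allow for libraries with and without strand and no source used here gives the counting setting, reads of the pair cannot be told apart. Gm38287 had 804 counts over the 12 libraries against 2327 for Nrarp.

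Mfng and Lfng had the largest fold differences among the 10 for Gata5-null against wildtype, and neither passed the test. Lfng (ENSMUSG00000029570), lunatic fringe, known for its cycling in the somite clock and for favouring Delta over Jagged ligands, was at 6.08, 7.23, 5.59 and 2.75 CPM in wildtype replicates 1 to 4. It was at 6.82, 11.4, 9.63 and 12.7 CPM in the double-heterozygous and at 13.0, 4.01, 13.5 and 12.8 CPM in the Gata5-null libraries. Thus 3 of 4 libraries in each mutant group lie above all 4 wildtype libraries, double-heterozygous replicate 1 lies below the highest wildtype value, and Gata5-null replicate 2 lies within the wildtype range. The mean was 5.41 ± 1.90 CPM in wildtype, 10.1 ± 2.55 CPM in double-heterozygous and 10.8 ± 4.54 CPM in Gata5-null libraries (SD, n = 4 each). Against wildtype the log2 fold change was 0.998 (SE 0.44, edgeR adjusted p = 0.870, unadjusted p = 0.0317) for Gata5-null and 0.90 (SE 0.44, edgeR adjusted p = 0.999997, unadjusted p = 0.0495) for double-heterozygous. Both comparisons share the wildtype libraries. The unadjusted p for double-heterozygous was 0.0543 with RLE and with upper quartile scaling, and it was under 0.05 in 3 of 9 other settings and 4 of 12 fits that leave out 1 library. For Gata5-null it was under 0.05 in 6 of 9 and 9 of 12. In 4 of the 12 fits of each comparison, the library left out belongs to the group not compared. Between the mutant groups, Lfng differed by 0.09 on the log2 scale (95% interval -0.80 to 0.99). Without wildtype replicate 4, its lowest library, the values against wildtype were 0.78 and 0.69, and without Gata5-null replicate 2 the first was 1.27.

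Mfng (ENSMUSG00000018169), manic fringe, which is known for expression in lymphoid and endothelial cells, had the fewest counts of the 10 in total (977), with 34 to 187 per library. Its level was 4.11, 3.14, 1.76 and 1.70 CPM in wildtype replicates 1 to 4, 3.59, 4.14, 2.22 and 4.17 CPM in the double-heterozygous and 8.76, 8.03, 4.96 and 4.09 CPM in the Gata5-null libraries. Gata5-null replicate 4 at 4.09 CPM is just under wildtype replicate 1 at 4.11 CPM, and the other 3 Gata5-null libraries are above all 8 others. The log2 fold change for Gata5-null against wildtype was 1.27 (SE 0.63, edgeR adjusted p = 0.953, 95% interval -0.04 to 2.58). For double-heterozygous against wildtype it was 0.40 (95% interval -0.89 to 1.69), and between the mutant groups 0.87 (95% interval -0.43 to 2.16). Rfng (ENSMUSG00000025158), radical fringe, which is expressed widely, was at 12.4, 11.4, 24.6 and 6.61 CPM in wildtype and 6.87, 6.17, 9.63 and 10.2 CPM in the double-heterozygous libraries. In the Gata5-null libraries it was at 10.7, 19.6, 7.57 and 6.81 CPM, so 2 libraries, wildtype replicate 3 and Gata5-null replicate 2, stand above the rest. Rfng had a log2 fold change of -0.74 (95% interval -1.59 to 0.11) for double-heterozygous against wildtype and -0.30 (95% interval -1.15 to 0.54) for Gata5-null against wildtype. Without wildtype replicate 3 these were -0.30 and 0.14.

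The make-up of the fringe level was described after the values of the 3 genes were seen, so no test is given. The 3 shares of a library are tied to each other and are not separate results. How often such shares differ between the groups for other genes was not counted. Per kb of exon, Rfng made up 56.2%, 53.3%, 77.6% and 61.0% of the summed fringe level in wildtype replicates 1 to 4 and was the highest of the 3 in each. In the double-heterozygous libraries Rfng made up 40.9%, 29.2%, 45.5% and 38.5%. Its CPM overlapped between these groups, at 6.17 to 10.2 CPM in double-heterozygous and 6.61 to 24.6 CPM in wildtype libraries. In the Gata5-null libraries its share was 34.2%, 63.9%, 29.9% and 29.5%, with replicate 2 inside the wildtype range and the other 3 below it. The share of Lfng was 17.5% to 33.7% in wildtype, 40.3% to 53.6% in double-heterozygous and 13.0% to 54.9% in Gata5-null libraries. Lfng was the highest of the 3 per kb in 3 of 4 Gata5-null libraries, all but replicate 2. The share of Mfng was 4.86% to 16.4% in wildtype, 9.20% to 18.7% in double-heterozygous and 15.5% to 24.6% in Gata5-null libraries. Heyl made up 60.8% to 65.0% of the summed Hey and Hes1 level per kb in wildtype, 56.5% to 70.9% in double-heterozygous and 56.1% to 68.5% in Gata5-null libraries.

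**Figure D3:**
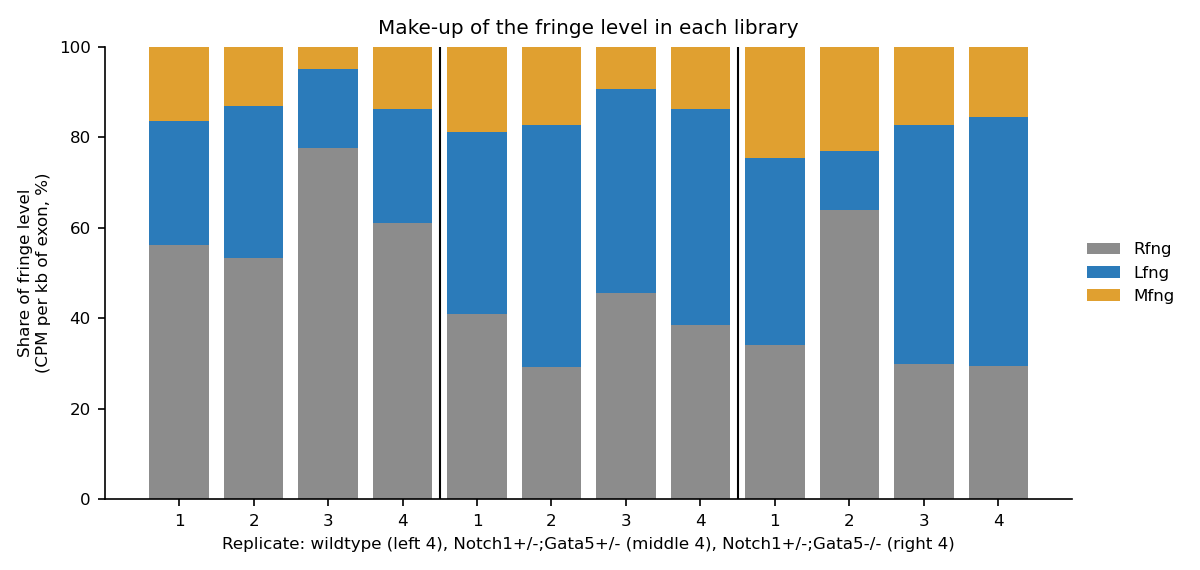
Share of Rfng, Lfng and Mfng in their summed CPM per kb of exon, 1 bar per library, with vertical lines between the groups. Rfng takes 53.3% to 77.6% in wildtype and 29.2% to 45.5% in double-heterozygous libraries, and Gata5-null replicate 2 is at 63.9%. The shares were described after the values were seen, and the CPM of Rfng overlaps between the groups.

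Endothelial and lymphocyte markers were read beside the fringe genes. Of 16 endothelial markers, 13 had a positive log2 fold change for Gata5-null against wildtype (median 0.16), beside 46.1% of all genes. For double-heterozygous against wildtype 12 did (median 0.16), beside 50.3%. None passed the test. At an unadjusted p under 0.05 there were 2 for Gata5-null, Nfatc1 (0.80) and Erg (0.37), beside 5.4% of all genes, and 0 for double-heterozygous, beside 1.25%. The summed level of the 16 was 1374 to 1711 CPM in wildtype, 1431 to 1882 CPM in double-heterozygous and 1505 to 1921 CPM in Gata5-null libraries. The part of these markers in the fringe values was not tested. Of 8 lymphocyte markers, 6 had a row in the count table, each at 0 in at least 1 library, and the summed level of the 5 tested was 1.97 to 10.1 CPM in wildtype, 1.35 to 3.23 CPM in double-heterozygous and 1.57 to 7.77 CPM in Gata5-null libraries. In such bulk samples, fewer cells of a type and less RNA per cell cannot be told apart.

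Dtx1 (ENSMUSG00000029603), a ubiquitin ligase of the Deltex family that binds the intracellular part of Notch, was at 6.91, 6.95, 11.2 and 4.81 CPM in wildtype replicates 1 to 4. It was at 6.51, 5.86, 4.84 and 6.80 CPM in the double-heterozygous and at 1.36, 5.25, 3.85 and 4.91 CPM in the Gata5-null libraries. The wildtype library with the least Dtx1 is inside the Gata5-null range, and the other 3 are above it. The log2 fold change for Gata5-null against wildtype was -0.96 (SE 0.53, edgeR adjusted p = 0.9997, 95% interval -2.06 to 0.14). It was -0.66 without Gata5-null replicate 1, which has 29 counts. For double-heterozygous against wildtype Dtx1 was at -0.32 (95% interval -1.40 to 0.77) on the log2 scale, and at -0.05 without wildtype replicate 3.

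Maml2 (ENSMUSG00000031925), a mastermind co-activator of the Notch complex in the nucleus, was at 31.0, 46.1, 26.5 and 44.0 CPM in wildtype replicates 1 to 4 and at 29.7 to 46.2 CPM in the double-heterozygous libraries. In the Gata5-null libraries it was at 46.3, 32.6, 69.2 and 41.1 CPM, and the 1 value above all other libraries is that of replicate 3. The log2 fold change for Gata5-null against wildtype was 0.36 (SE 0.23, edgeR adjusted p = 0.9997, 95% interval -0.11 to 0.83), and 0.13 without Gata5-null replicate 3. For double-heterozygous against wildtype it was 0.07 (95% interval -0.40 to 0.54).

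**Figure D4:**
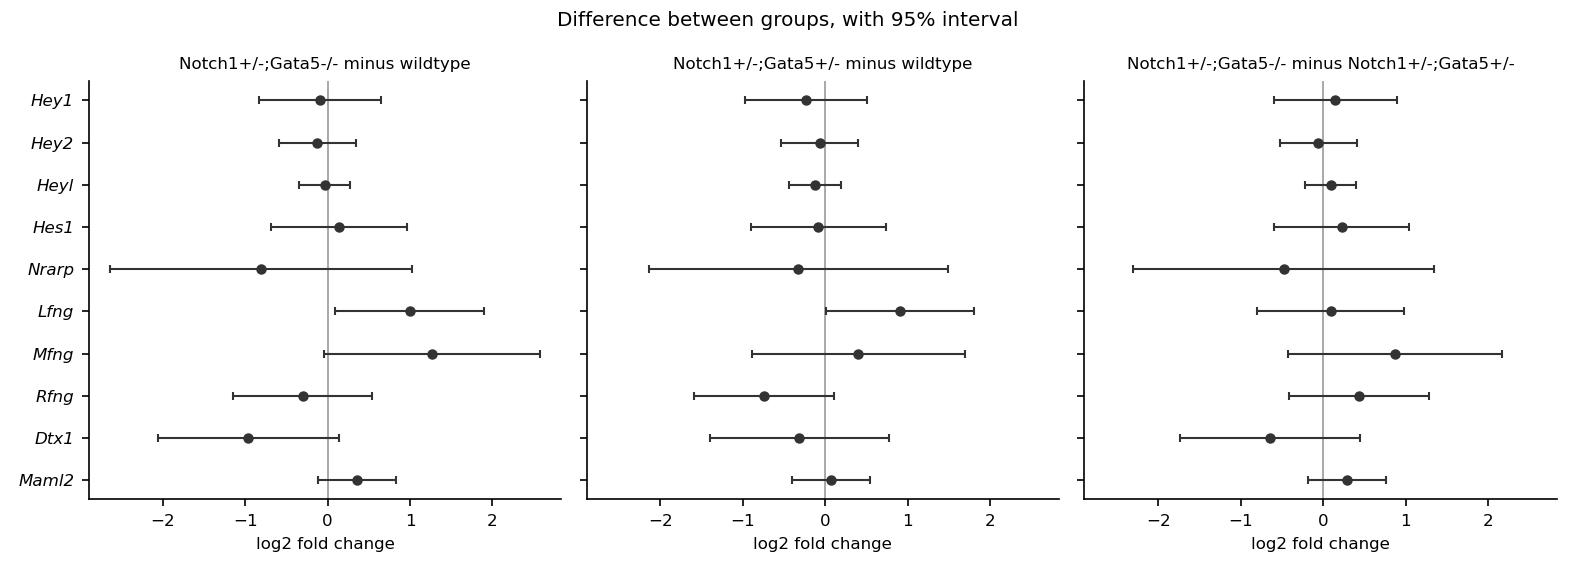
Log2 fold change of the 10 genes in each comparison (points), with 95% intervals from the edgeR quasi-likelihood fit, not adjusted for the number of genes. Lfng is the 1 gene whose interval lies above 0 against wildtype, at 0.998 for Gata5-null and at 0.90 for double-heterozygous, where the interval starts at 0.0023 and the unadjusted p is 0.0543 under RLE and upper quartile scaling, and Heyl has the narrowest intervals.

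Likeness between the members from library to library was described without a test. Over the 45 pairs of members, Pearson's r of log2 CPM across the 12 libraries ran from -0.71 for Nrarp and Maml2 to 0.66 for Hey1 and Nrarp, with a median of -0.02 and 22 pairs above 0. Both extremes include Nrarp, whose 0 in Gata5-null replicate 3 weighs on them, and Spearman's rho for these pairs was -0.44 and -0.23. In all, 2 pairs had r over 0.5 and 5 had r under -0.5. Among those without Nrarp, r was 0.52 (rho 0.55) for Heyl and Hes1 and -0.60 (rho -0.34) for Mfng and Dtx1. With Maml2, r was -0.59 (rho -0.38) for Rfng, -0.57 (rho -0.76) for Dtx1 and -0.54 (rho -0.08) for Hey1. The r within groups, of deviations from the group means, was 0.52 for Heyl and Hes1 but only -0.21 for Mfng and Dtx1. With Maml2 it was -0.68 for Rfng, -0.45 for Dtx1 and -0.54 for Hey1. For Heyl and Mfng it was -0.70, where r over all libraries was -0.47, and for Hey2 and Mfng 0.57 and 0.23. The 3 genes most like each member were taken by r over 13774 other genes with a mean log2 CPM of at least 1, so they are the best of many and carry no test. For Maml2 they were Fat1 (r = 0.94, rho = 0.94), Atp8b2 and Tcirg1, and r for Fat1 was 0.92 without the 2 libraries farthest from the Maml2 median. For Heyl they were Anxa6 (r = 0.93, rho = 0.94), Mfhas1 and Gja1, for Hes1 Daxx, Cd81 (r = 0.88, rho = 0.91) and Wdr1, and for Hey2 Pde6d, Nsg1 (r = 0.85, rho = 0.91) and Abhd12. For Lfng they were Ing2 (r = 0.89, rho = 0.83), Gm47644 and Suv39h2, for Mfng Smim3 (r = 0.88, rho = 0.83), Dbp and Nav3, for Rfng Ppa2, Acp6 and Dpyd, and for Dtx1 Gm32699, Gm43330 and Hibadh. For Nrarp (Pml, Rbm45 and Ptcd1) and Hey1 (Riok2, Gm17203 and Klhl8) the likeness rests on few libraries, since r for Pml was 0.99 with all libraries and 0.76 without the 2 farthest, and for Riok2 0.91 and 0.60. Other members had such falls too. Without their 2 farthest libraries, r fell from 0.86 to 0.55 for Heyl and Gja1 and from 0.89 to 0.70 for Lfng and Ing2. It fell from 0.88 to 0.69 for Rfng and Ppa2 and from 0.89 to 0.65 for Dtx1 and Hibadh. For Hey2 and Nsg1 it rose from 0.85 to 0.95. None of these 30 genes was another of the 10.

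The rest of the pathway was read from a list of 73 other genes, of which 70 were tested, and none passed in any comparison. For Gata5-null against wildtype 36 of the 70 were positive and 34 negative, with a median log2 fold change of 0.00, beside -0.03 over all genes tested. The counts of positive genes were 3 of 4 receptors, 4 of 6 ligands, 4 of 10 genes that cut the receptor, 12 of 20 nuclear factors and co-repressors, 7 of 15 modulators and 6 of 12 other targets. The list also holds Pofut1 and Poglut1, which add the first sugars to Notch repeats, at -0.09 and -0.39, and B3glct at -0.22, whose enzyme is known to act on thrombospondin repeats rather than on Notch. The smallest p-values belonged to the receptor Notch1 (0.53, SE 0.15, edgeR adjusted p = 0.582), the mesenchymal repressor Snai2 (1.20, SE 0.49, edgeR adjusted p = 0.840) and the arterial ligand Efnb2 (-0.40, SE 0.19, edgeR adjusted p = 0.893). For double-heterozygous against wildtype 39 of 70 were positive (median 0.04), with the smallest p-values at Notch1 (0.42), the ligand Jag1 (-0.25) and B3glct (-0.38). Between the mutant groups 32 of 70 were positive (median -0.02), with the smallest p-values at Aph1b (0.63) and Aph1a (-0.40), of the protease that cuts Notch, and at the ubiquitin ligase Mib1 (-0.20).

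**Figure D5:**
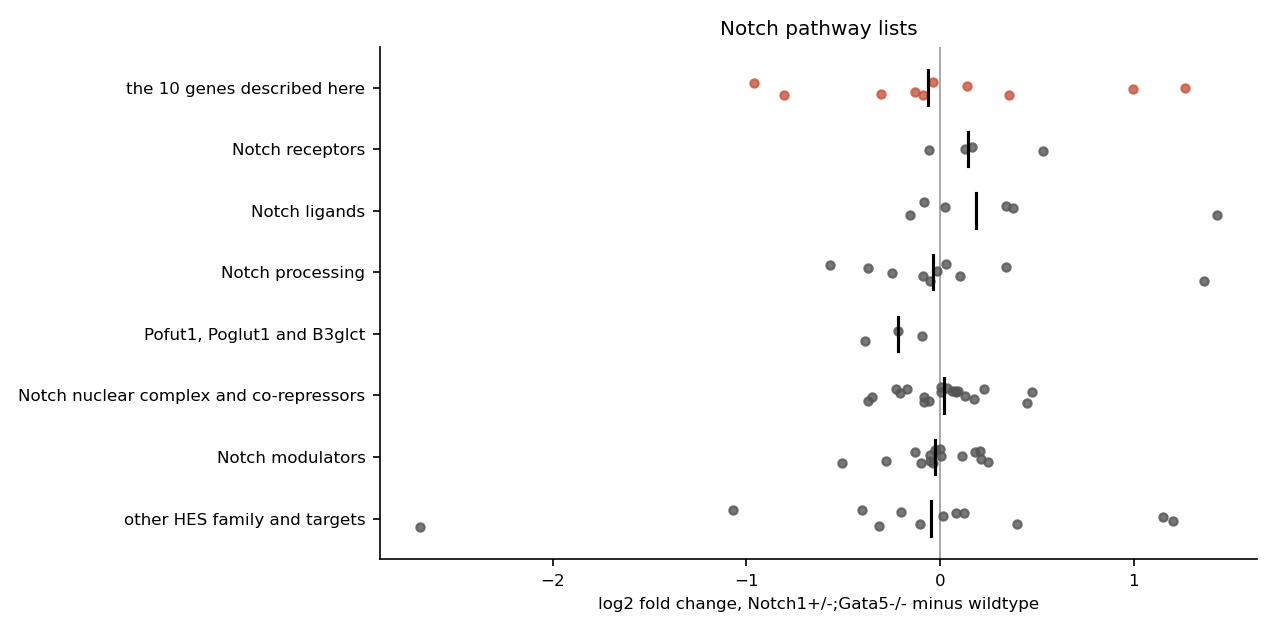
Log2 fold change for Gata5-null against wildtype of the 10 genes (red) and of the 70 tested genes of the other lists (grey), with the median of each as a black line. The 10 genes run from -0.96 for Dtx1 to 1.27 for Mfng with a median of -0.06.

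The authors' deposited table, whose log2 fold changes match Gata5-null against wildtype in a refit with a largest difference of 0.0001655, holds all 10 genes and marks none of them as changed. In the authors' deposited table the smallest adjusted p among them are those of Mfng (log2 fold change 1.29, SE 0.54, adjusted p = 0.582) and Lfng (log2 fold change 1.02, SE 0.46, adjusted p = 0.673).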

How the data were processed

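RNA was measured in 12 libraries of mouse aortic valve, 4 per genotype. The tools Trim Galore, STAR 2.7.10b and DESeq2 1.34.0 and the build GRCm39 are named, without their settings, per the submitters' processing notes. No source used here names the counting tool, its annotation or its strand setting. The deposited values are whole-number raw counts, for 20620 genes. The authors' deposited comparison table gives a mean normalized signal, log2 fold changes, their standard error and a Wald statistic (scores), and p-values for 13959 genes.

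That table paired 13959 identifiers with a symbol, GENCODE M21 another 6077, and 584 had none. GENCODE M21 (build GRCm38) gave exon lengths and overlapping genes. Counts were filtered by filterByExpr, scaled by TMM and fitted with the robust quasi-likelihood model of edgeR 4.0.16 (R 4.3.3), with all 12 libraries in 1 fit and a term per group. Intervals are the log2 fold change plus or minus the t quantile of the fit's degrees of freedom times its SE. The fit was also run on simulated counts, in which the genes given a change were well expressed. Of the members, Hey2, Heyl and Maml2 lie in that range of level, so recovery of changes in the less abundant members was not covered. Log2 CPM for correlations used a prior count of 2.

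The members, the other lists and the settings were chosen with earlier results of these data known. The text names the 10 members, Notch1, Gata5, the 3 other pathway genes with the smallest p in each comparison and the 3 genes most like each member. Antisense Gm38287, Pofut1, Poglut1 and the marker lists were added to that. Other settings were RLE and upper quartile scaling, no filter, a stricter filter (CPM 1 or more in 4 or more libraries), limma-voom (limma 3.58.1), DESeq2 1.42.0, only the 8 libraries compared, the replicate number as a block, and libraries left out. Over 12 same-numbered pairs the deviations from the group means correlated at -0.03 to 0.10, highest for replicate 4 of wildtype and double-heterozygous. In each group replicate 4 had the largest total count and the lowest TMM factor (0.931, 0.955 and 0.967). What same-numbered libraries share was not tested further.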

Additional observations from a re-analysis of the deposited data

Results flagged for a closer look

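In 3 of the 30 combinations of a member and a group, 1 library lay far from the other 3 of its group; about 1 in 20 such groups is flagged by chance. Gata5-null replicate 2 was at 4.01 CPM for Lfng, where the nearest library of its group was at 12.8 CPM. Double-heterozygous replicate 4 was at 21.7 CPM for Hes1, where the nearest was at 10.1 CPM. Wildtype replicate 4 was at 199.9 CPM for Heyl, where the nearest was at 150.2 CPM. None of these 3 libraries is one of the pair with the most genes at 0. Gata5-null replicate 2 comes next after that pair, with 2908 genes at 0 and a total count of 15139894.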

How the results depend on the processing

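Over 30 member results and 21 other settings, 599 of 630 values kept their direction, 31 reversed in 13 results, and none passed the threshold (smallest adjusted p 0.555). For each comparison, 4 of the 12 fits that leave out 1 library drop one of the group not compared. Both compared groups are then whole, and scaling settings use the same counts, so the 630 values are not separate checks. The causes of the changes were not tested. Genes called for Gata5-null against wildtype numbered 49 with DESeq2, 0 with only the 8 libraries compared (504 at an unadjusted p under 0.05), 2 without wildtype replicate 2 and Gata5-null replicate 3, and 2 to 21 leaving out 1 library, with 2 without wildtype replicate 2, 3 without Gata5-null replicate 1 and 21 without Gata5-null replicate 4. DESeq2 called 8 for double-heterozygous against wildtype, where leaving out 1 library gave 0 throughout. For Gata5-null against double-heterozygous DESeq2 called 13, leaving out that pair of libraries gave 2, and leaving out 1 library gave 0 to 1. The replicate number as a block gave 7, 0 and 0 and changed no member's call. In 3 of 12 same-numbered pairs, the library of the first group correlated better with its own number than with the other numbers of the second group.

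Without wildtype replicate 2 and Gata5-null replicate 3, the log2 fold change against wildtype turned to 0.19 for Hey1 and 0.0718 for Hey2 in Gata5-null and to 0.0140 for Hey2 in double-heterozygous, and between the mutant groups to 0.0579 for Hey2, -0.0204 for Lfng and -0.00727 for B3glct. Leaving out 1 library, Gata5-null against wildtype ran from -0.41 to 0.19 for Hey1, -0.19 to 0.0902 for Heyl, -0.0427 to 0.51 for Hes1 and -0.72 to 0.14 for Rfng. Double-heterozygous against wildtype ran from -0.25 to 0.0725 for Hey2, -0.22 to 0.00287 for Heyl, -0.52 to 0.29 for Hes1, -0.0616 to 0.19 for Maml2 and -0.23 to 0.0379 for Efnb2. Between the mutant groups the range was -0.17 to 0.42 for Hey1, -0.22 to 0.14 for Hey2, -0.0624 to 0.18 for Heyl, -0.0379 to 0.37 for Lfng and -0.0119 to 0.32 for B3glct. Counting error limits the least counted members, down to 34 counts in a library for Mfng, 29 for Dtx1 and 0 for Nrarp. Leaving out wildtype replicate 3 moved double-heterozygous against wildtype to -0.05 for Dtx1 and -0.07 for Nrarp.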
